A study of Mus with 8 samples.

Results

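The 9 genes described here encode enzymes of local steroid conversion: Hsd11b1, Hsd11b2, Srd5a1, Hsd17b1, Hsd17b2, Hsd17b11, Akr1c18, Sts and Sult1e1. They were looked up by symbol in a table of read counts for 31269 gene symbols, where 8 have a row and Sts is not analysed here. Sult1e1 did not reach the filter on low counts, so 7 of the 9 were among the 17629 genes tested. The genes were chosen by their enzymatic role with the differences between the groups already known, Hsd11b1, Hsd11b2 and Srd5a1 in particular. Their differences are therefore given as a description and support no claim.

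Steroid hormones reach the uterus through the blood, but enzymes inside the tissue decide how much active hormone its receptors meet. Some of these enzymes activate a hormone, others oxidize, reduce or sulfate it into a weaker form, and they often work as opposed pairs. Hsd11b1 regenerates active glucocorticoid and Hsd11b2 inactivates it, Hsd17b1 makes estradiol from estrone and Hsd17b2 turns it back, Sult1e1 adds sulfate to estrogen and Sts removes sulfate. Srd5a1 and Akr1c18 reduce progesterone to weaker products, and both are known in mice for their part in the approach to birth. Hsd17b11 oxidizes steroids at the same carbon as Hsd17b2 and sits on lipid droplets.

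Mouse uterus was sequenced in 8 RNA libraries on day 6 of pseudopregnancy, a state in which mating without fertilization keeps progesterone high. The labels name 4 of them controls and assign myometrial PGR deficiency to the other 4, meaning that the muscle layer should lack progesterone receptor. Alleles, any Cre driver, strain and age are not given in the labels, and neither is whether every library had its own animal. The p-values therefore measure the spread between these libraries, which may be technical. The labels place the tissue around implantation sites, although pseudopregnancy has no embryos, and which part of the uterus was taken is not settled here. The comparison asks how expression of the enzymes in the whole uterus differed between the 2 groups.

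Total counts ran from 70296369 to 72364750 per library. Levels are given as CPM, counts scaled to library size with TMM, which compares libraries for 1 gene and not 1 gene with another, since counts also depend on transcript length. Pgr itself showed no lower level in the group labelled deficient, at 131.3 to 180.0 CPM in the controls and 159.7 to 186.6 CPM in the other group (log2 difference 0.18 ± 0.11 SE). Counts over all cells do not separate a loss in muscle alone, so the group is called "labelled deficient" and each direction rests on the label. All 7 smooth muscle, all 7 stromal and all 10 epithelial marker genes passed the filter on low counts. Passing it does not identify the tissue, since 4 of 7 ovary markers passed as well. Libraries 2 and 3 labelled deficient stood apart in epithelial markers (summed 3617 and 2639 CPM against 1351 to 1557 in the controls), so results that rest on them are given with and without both. In bulk tissue, fewer cells of a type and less RNA per cell cannot be told apart.

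Of the 7 enzymes tested, 3 had no overlap between the 4 libraries of each group. Hsd11b2 was higher in the libraries labelled deficient, and Hsd11b1 and Srd5a1 were lower. Among all genes tested the groups did not overlap in 16.3%, 7.61% higher and 8.66% lower. In edgeR's quasi-likelihood test with Benjamini-Hochberg adjustment over all 17629 genes, 0 of 7 passed the threshold of 0.05, as did 0% of all genes. Adjusted p-values of the 7 ran from 0.0940 for Srd5a1 to 0.509 for Hsd17b11. At an unadjusted p under 0.05 there were 5 of 7, beside 24.8% of all genes. DESeq2, a second count test, called 5 of 7, beside 14.1% of all genes, and limma-voom called 0. Because this contrast was known when the genes were chosen, nothing is read from these counts.

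**Figure D1:**
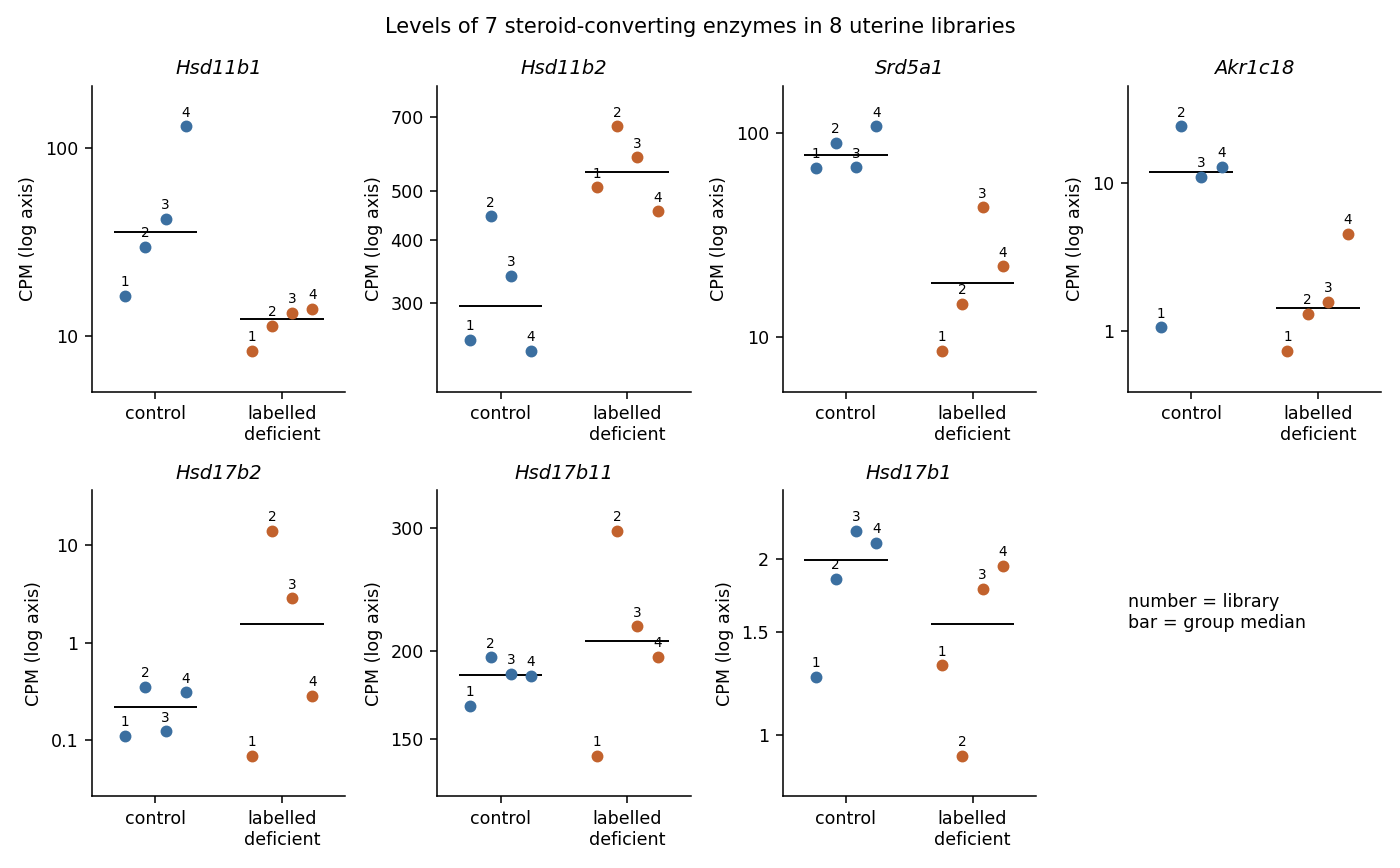
Levels in CPM (log axes) of the 7 enzymes tested, in 4 control libraries and 4 labelled deficient; each point is 1 library with its number, and the bar is the group median. Hsd11b1, Hsd11b2 and Srd5a1 show no overlap between groups, control library 1 lies among the libraries labelled deficient for Akr1c18, and Hsd17b2 is high in libraries 2 and 3 labelled deficient.

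Hsd11b1 is an enzyme of the endoplasmic reticulum that turns inert 11-dehydrocorticosterone into corticosterone. Its gene lies at chr1:193221640-193264045 (GRCm38.p6, the assembly mm10 names). In control libraries 1 to 4 its level was 16.3, 29.7, 42.0 and 130.0 CPM. In libraries 1 to 4 labelled deficient it was 8.33, 11.3, 13.3 and 14.0 CPM. All 4 values labelled deficient lay below the lowest control, though library 4 (14.0 CPM) came close to control library 1 (16.3 CPM). The controls spread over 7.96-fold from lowest to highest, against 1.68-fold in the other group. The group means were 54.5 ± 51.4 and 11.7 ± 2.53 CPM (SD, n = 4 each), a 4.64-fold lower level in the libraries labelled deficient (95% interval 1.80 to 12.0). The log2 difference was -2.21 ± 0.60 (SE), and without control library 4 it was -1.33 ± 0.32.

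The oxidative partner, Hsd11b2, protects the mineralocorticoid receptor from glucocorticoid by converting corticosterone to its inert form. It lies at chr8:105518746-105523988. Control libraries 1 to 4 held 253.9, 445.4, 339.6 and 241.5 CPM. Those labelled deficient held 508.0, 670.0, 581.9 and 455.8 CPM. The groups did not overlap but lay close together at control library 2 and library 4 labelled deficient. Means were 320.1 ± 94.2 and 553.9 ± 93.1 CPM (SD, n = 4 each), a 1.73-fold higher level in the libraries labelled deficient (95% interval 1.24 to 2.42; log2 difference 0.79 ± 0.21 SE). Libraries 2 and 3 labelled deficient were the highest, and without both the log2 difference was 0.59 ± 0.24. With 17126 to 45171 reads per library, counting error was small beside the spread between libraries.

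Setting both genes of the pair against each other within a library removes the scaling. In control libraries 1 to 4 there were 15.6, 15.0, 8.08 and 1.86 reads of Hsd11b2 for each read of Hsd11b1. In libraries 1 to 4 labelled deficient there were 60.9, 59.1, 43.6 and 32.6. The lowest ratio in a library labelled deficient was above the highest control ratio. That follows from the levels of both genes, which each lacked overlap and differed in opposite directions, and is no further result. This ratio varied more among the controls (log2 ratio of Hsd11b1 over Hsd11b2 -2.94 ± 1.43 SD, n = 4) than among the others (-5.57 ± 0.42 SD, n = 4), and the means differed by -2.63. The ratio counts reads and does not give the proportion of enzyme molecules or their activity.

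H6pd supplies the NADPH that Hsd11b1 needs to work as a reductase. Its level was 291.7, 376.2, 275.1 and 537.0 CPM in control libraries 1 to 4, and 238.1, 289.0, 271.6 and 216.7 CPM in those labelled deficient. Control library 4 was thus the highest for both Hsd11b1 and H6pd, and the groups overlapped for H6pd (log2 difference -0.54 ± 0.21, adjusted p = 0.168 in edgeR). For the receptors of the hormone that this pair converts, the groups overlapped. Nr3c1, the glucocorticoid receptor, averaged 73.4 ± 1.51 CPM (SD, n = 4) in controls against 74.9 ± 9.98 CPM, and Nr3c2, the mineralocorticoid receptor, 5.05 ± 0.95 against 3.99 ± 1.22 CPM. Neither passed the test, and the log2 differences were 0.03 ± 0.09 and -0.34 ± 0.25. Without libraries 2 and 3 labelled deficient they were 0.19 ± 0.05 and -0.05 ± 0.23.

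**Figure D2:**
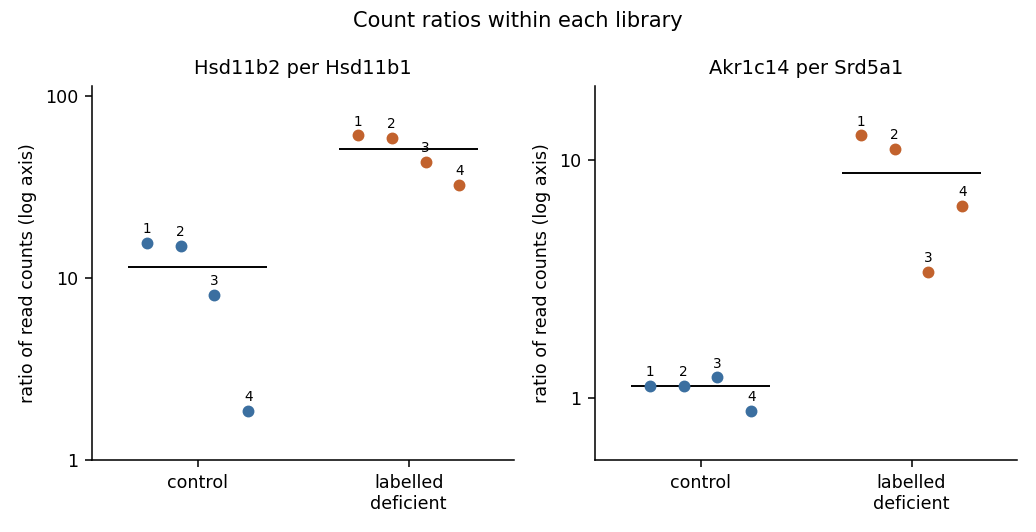
Ratios of read counts within each library (log axes): Hsd11b2 reads per Hsd11b1 read on the left and Akr1c14 reads per Srd5a1 read on the right; points are numbered libraries and bars group medians. In both panels every library labelled deficient lies above every control, from 32.6 to 60.9 against 1.86 to 15.6 on the left and from 3.38 to 12.7 against 0.88 to 1.22 on the right. This follows from the levels of the genes, which each lacked overlap and differed in opposite directions within a pair.

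Srd5a1 is the steroid reductase that commits progesterone and testosterone to their reduced forms. It lies at chr13:69573449-69611485. Its level was 67.3, 88.8, 67.5 and 107.4 CPM in control libraries 1 to 4. In libraries 1 to 4 labelled deficient it was 8.50, 14.5, 43.1 and 22.1 CPM. Here the order of spread was the other way round from Hsd11b1: the controls lay within 1.60-fold of each other and the libraries labelled deficient spread over 5.07-fold. Means were 82.8 ± 19.3 and 22.1 ± 15.1 CPM (SD, n = 4 each), a 3.75-fold lower level in the libraries labelled deficient (95% interval 1.81 to 7.77; log2 difference -1.91 ± 0.46 SE). Library 3 labelled deficient was nearest the controls, and without it the log2 difference was -2.46 ± 0.35.

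Akr1c14 acts on the product of Srd5a1, reducing it again to neurosteroids such as allopregnanolone. It measured 75.5, 99.4, 82.2 and 94.7 CPM in control libraries 1 to 4 and 108.3, 162.2, 145.8 and 142.4 CPM in those labelled deficient. It was higher in all 4 of the latter than in any control (log2 difference 0.67 ± 0.14; adjusted p = 0.0906 in edgeR, not past the threshold). Without libraries 2 and 3 labelled deficient, the log2 difference of Akr1c14 was 0.52 ± 0.15. The controls held 0.88 to 1.22 reads of Akr1c14 for each read of Srd5a1, and the libraries labelled deficient 12.7, 11.2, 3.38 and 6.44. This pair was set side by side after its values were seen, and its lack of overlap follows from that of each gene. The other genes named as steroid reductases were different: Srd5a3, which mainly serves dolichol synthesis, was level at 40.1 ± 4.30 and 40.5 ± 1.84 CPM (SD, n = 4 each), and Srd5a2 had at most 37 reads in any library.

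Akr1c18 inactivates progesterone by reducing its side chain, and its level in the ovary controls the end of pregnancy in rodents. It lies at chr13:4132615-4150646, in a cluster of closely related Akr1c genes between which reads could be split. Control libraries 1 to 4 held 1.06, 23.9, 11.0 and 12.7 CPM. Libraries 1 to 4 labelled deficient held 0.73, 1.31, 1.57 and 4.53 CPM. The groups overlapped because control library 1 lay within the range of the libraries labelled deficient, while the other 3 controls were above all of them. Means were 12.2 ± 9.37 and 2.04 ± 1.70 CPM (SD, n = 4 each), with a log2 difference of -2.58 ± 0.88 (SE), and without library 4 labelled deficient it was -3.34 ± 0.93. The adjusted p was 0.137 in edgeR.

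Control library 1 was also low in smooth muscle markers. Their summed level over 7 genes was 4125, 5821, 4964 and 6161 CPM in control libraries 1 to 4 and 4083, 4586, 4778 and 4364 CPM in libraries 1 to 4 labelled deficient. For Akr1c18 as for this sum, control library 1 lay with the libraries labelled deficient. The part of muscle content in the Akr1c18 difference was not tested. Markers of the ovary, where Akr1c18 is abundant, summed to 17.3 to 21.8 CPM in the controls and 12.6 to 16.5 CPM in the others. Most of this was Inha (14.5 to 19.1 and 10.9 to 13.1 CPM). Amh, Gdf9 and Lhcgr overlapped between groups, with log2 differences of -0.75, -0.36 and 0.95. The other 3 of the 7 genes (Fshr, Zp3 and Oosp1) never exceeded 10 reads.

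Hsd17b2 oxidizes estradiol and testosterone and, in uterine epithelium, is known as a progesterone-induced brake on estrogen. It lies at chr8:117700982-117759030. Its counts were 8, 25, 9 and 22 reads in control libraries 1 to 4, which is 0.11, 0.35, 0.12 and 0.31 CPM. In libraries 1 to 4 labelled deficient they were 5, 946, 201 and 21 reads, or 0.07, 14.0, 2.85 and 0.29 CPM. Libraries 2 and 3 labelled deficient were therefore above all the others, library 4 lay within the control range and library 1 below it. The log2 difference over all 8 libraries was 4.26 ± 1.46 (SE, adjusted p = 0.138 in edgeR). Without library 2 it was 2.25 ± 1.09, and without libraries 2 and 3 it was -0.32 ± 0.74. The group difference in Hsd17b2 rested on those 2 libraries.

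The same 2 libraries were both above every control in 7 of 10 epithelial markers. The exceptions were Krt18, Cldn3 and Cldn4, and Cldn3 was lowest of all in library 3 (105.5 CPM). Such a rise was not particular to epithelium: it held for 7 of 7 macrophage, 2 of 6 decidual, 1 of 7 stromal, 0 of 7 smooth muscle and 0 of 5 endothelial markers. Among the pathway lists it held for 7 of 14 genes of steroid synthesis, 5 of 12 other reductases and 0 of 9 genes responsive to glucocorticoid or progestin. Summed endothelial markers were at 572.6 and 636.2 CPM in libraries 2 and 3, against 821.0 to 997.9 CPM in the controls. The share of all genes that lay above every control in both libraries was not computed, so these counts are not read as a result about any list. Summed epithelial markers stood at 1433, 3617, 2639 and 1487 CPM in libraries 1 to 4 labelled deficient. Summed estrogen-responsive epithelial genes, 6 in number and led by C3 and Ltf, stood at 1304, 9879, 6756 and 1493 CPM there and at 1233 to 2888 CPM in the controls. Summed gland markers did not share this pattern, at 314.5, 22.4, 102.5 and 1050 CPM in the same order, with libraries 2 and 3 lowest. In every control, most of this sum was Prss28 and Prss29, which with Spink1 were below every control in libraries 2 and 3. Foxa2 was at 14.7 and 7.99 CPM in these 2 libraries, against 10.2 to 18.2 CPM in the controls. Cxcl15 was at 0.46 and 6.81 CPM, against 4.19 to 27.7 CPM. The part of epithelial content or of estrogen response in the Hsd17b2 values was not tested.

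**Figure D3:**
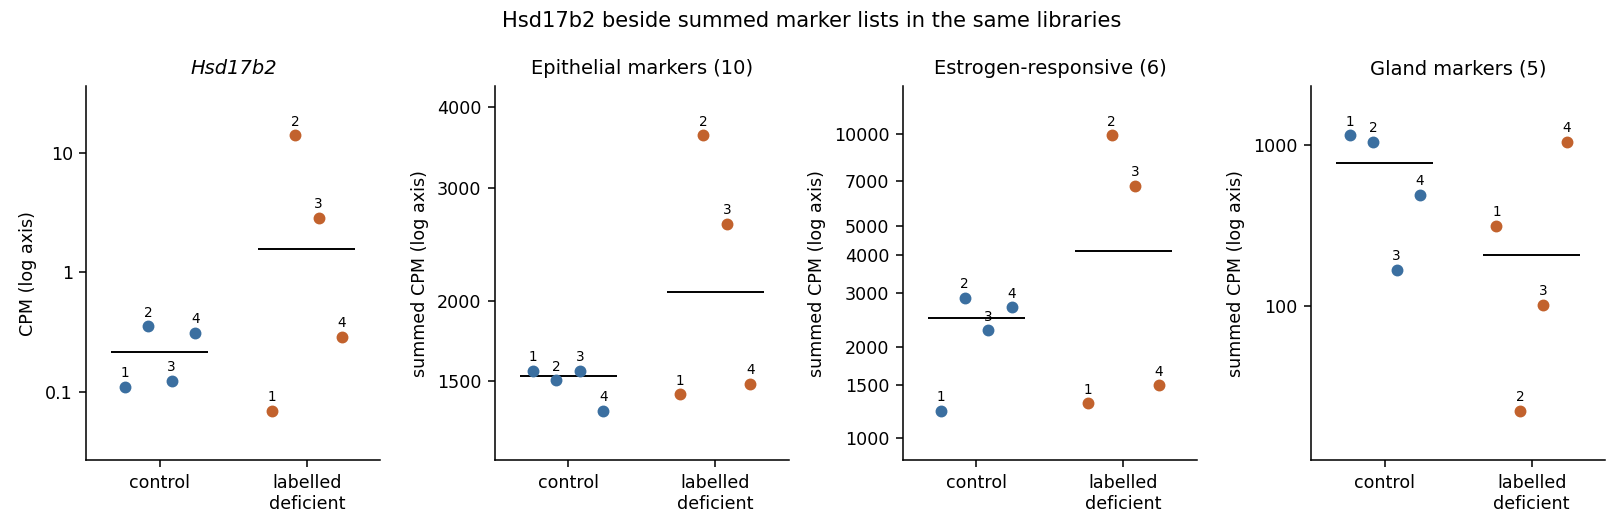
Hsd17b2 in CPM beside the summed CPM of 10 epithelial markers, 6 estrogen-responsive epithelial genes and 5 gland markers (all log axes); points are numbered libraries and bars group medians. Libraries 2 and 3 labelled deficient are highest in the first 3 panels and lowest in the gland panel.

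Hsd17b11 and Hsd17b1 showed no separation. Hsd17b11 lies at chr5:103989765-104021796 and measured 167.0, 195.9, 185.7 and 184.4 CPM in control libraries 1 to 4, the narrowest spread of the 7 in the controls (1.17-fold). In libraries 1 to 4 labelled deficient it measured 141.7, 297.0, 217.1 and 196.1 CPM. The controls lay inside the range of the other group, whose lowest and highest libraries were 1 and 2. The log2 difference was 0.22 ± 0.20 over all libraries and -0.11 ± 0.13 without libraries 2 and 3. Its 95% interval, 0.851- to 1.59-fold, leaves room for a modest difference either way.

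Hsd17b1, the estradiol-forming enzyme of the ovary, lies at chr11:101077968-101081188 and was low throughout. It held 91, 131, 163 and 151 reads in control libraries 1 to 4 and 95, 62, 125 and 142 reads in those labelled deficient. These are 1.87 ± 0.44 and 1.49 ± 0.46 CPM (SD, n = 4 each), with a log2 difference of -0.33 ± 0.29 and an interval from 0.503- to 1.26-fold. Library 2 labelled deficient, the highest for Hsd17b2, was the lowest for Hsd17b1.

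Sult1e1, the estrogen sulfotransferase at chr5:87575968-87591611, had 2 reads in control library 2, 1 read in library 2 labelled deficient and 0 in the other 6. A count of 0 allows up to 3 reads, or 0.0410 to 0.0445 CPM in these libraries, for counting error only. No difference was detectable at this depth. Of the sulfur-handling genes around it, Sumf1, which activates sulfatases including Sts, averaged 53.9 ± 2.16 CPM in controls against 63.3 ± 3.64 CPM (SD, n = 4 each), with no overlap and a log2 difference of 0.23 ± 0.06. Slc10a6, which imports sulfated steroids, was lower without overlap, at 31.0 ± 1.61 and 22.2 ± 4.54 CPM (SD, n = 4 each; log2 difference -0.48 ± 0.15). Sult1d1, another sulfotransferase, measured 304.8 ± 46.1 and 174.7 ± 69.0 CPM (SD, n = 4 each), and its groups overlapped. Its log2 difference was -0.80 ± 0.26, or -0.45 ± 0.21 without libraries 2 and 3 labelled deficient. None of these 3 passed the adjusted test (adjusted p from 0.101 to 0.129 in edgeR).

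The rest of the pathway was taken from 8 fixed lists with 70 genes, of which 57 were tested. In edgeR 0 of 57 passed the adjusted threshold, and 22 had an unadjusted p under 0.05 (14 with positive and 8 with negative differences), beside 24.8% of all genes. In 11 the groups did not overlap, 6 higher and 5 lower, a share of the 57 close to the 16.3% of all genes. The median log2 difference of the 57 was 0.01, as it was over all genes.

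Among other reductases of ring and side chain, 8 were tested and 7 had positive differences, beside 9159 of the 17629 genes tested. In 3 the groups did not overlap, all higher, where 7.61% of all genes were higher without overlap. Besides Akr1c14 these were Dhrs9, an oxidoreductase of retinoids and steroids, and Akr1cl. Dhrs9 stood at 6.33, 36.9, 19.4 and 4.25 CPM in libraries 1 to 4 labelled deficient and at 1.27 to 3.32 CPM in the controls, so libraries 2 and 3 were again the highest. The log2 difference of Dhrs9 was 3.13 ± 0.72 over all libraries, 2.39 ± 0.57 without library 2 and 1.47 ± 0.41 without both. Akr1cl stood at 2.03, 8.93, 2.89 and 2.13 CPM against 0.30 to 1.52 CPM, and its log2 difference was 2.17 ± 0.63, or 1.23 ± 0.52 without libraries 2 and 3. The median log2 difference of the 8 was 0.94 over all libraries. Without libraries 2 and 3, Akr1c13 went from 1.12 ± 0.40 to 0.42 ± 0.23 and Akr1c12 from 0.76 ± 0.62 to -0.37 ± 0.48. Akr1d1 went the other way, from 2.31 ± 0.73 to 2.93 ± 0.68.

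Other genes of the Hsd17b family, many of which act mainly on fatty acids or sterols, numbered 7 tested. None lacked overlap, and their median log2 difference was -0.00. Hsd17b12, a fatty acid elongation enzyme, had the smallest p (log2 difference 0.43 ± 0.18, or 0.18 ± 0.14 without libraries 2 and 3) and Hsd17b7, of cholesterol synthesis, was next (0.69 ± 0.35, or 0.23 ± 0.22). Hsd17b10 was level at 72.9 ± 2.14 and 72.7 ± 5.75 CPM (SD, n = 4 each).

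Of the genes that make steroids from cholesterol, 8 of 14 were tested, and 3 had an unadjusted p under 0.05: Stard3, Tspo and Cyp21a1, the last of which was high in libraries 2 and 3 labelled deficient (57.5 and 32.2 CPM). The log2 difference of Cyp21a1 was 6.70 ± 1.76 with those libraries and 0.65 ± 0.42 without them. Cyp17a1, Cyp19a1, Hsd3b6 and Cyp11b2 never exceeded 10 reads in a library, and Cyp11a1, which starts the pathway, stayed at 0.54 ± 0.26 and 0.48 ± 0.49 CPM (SD, n = 4 each). Stard3, a cholesterol carrier of late endosomes, was higher without overlap (log2 difference 0.41 ± 0.15, or 0.17 ± 0.07 without libraries 2 and 3). Tspo, a mitochondrial membrane protein, was at 0.45 ± 0.13 with overlap, or 0.28 ± 0.13 without them.

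Of the cytochromes that hydroxylate estrogen, Cyp1a1 stood at 9.15, 0.62, 5.50 and 5.77 CPM in control libraries 1 to 4 and at 0.32, 1.32, 0.17 and 0.47 CPM in those labelled deficient. Control library 2 lay inside the range of the other group. Cyp1b1 stood at 121.1, 26.5, 59.6 and 38.2 CPM against 43.6, 3.50, 3.12 and 25.7 CPM, with libraries 2 and 3 labelled deficient lowest, and its log2 difference of -1.69 ± 0.89 was -0.82 ± 0.60 without both.

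**Figure D4:**
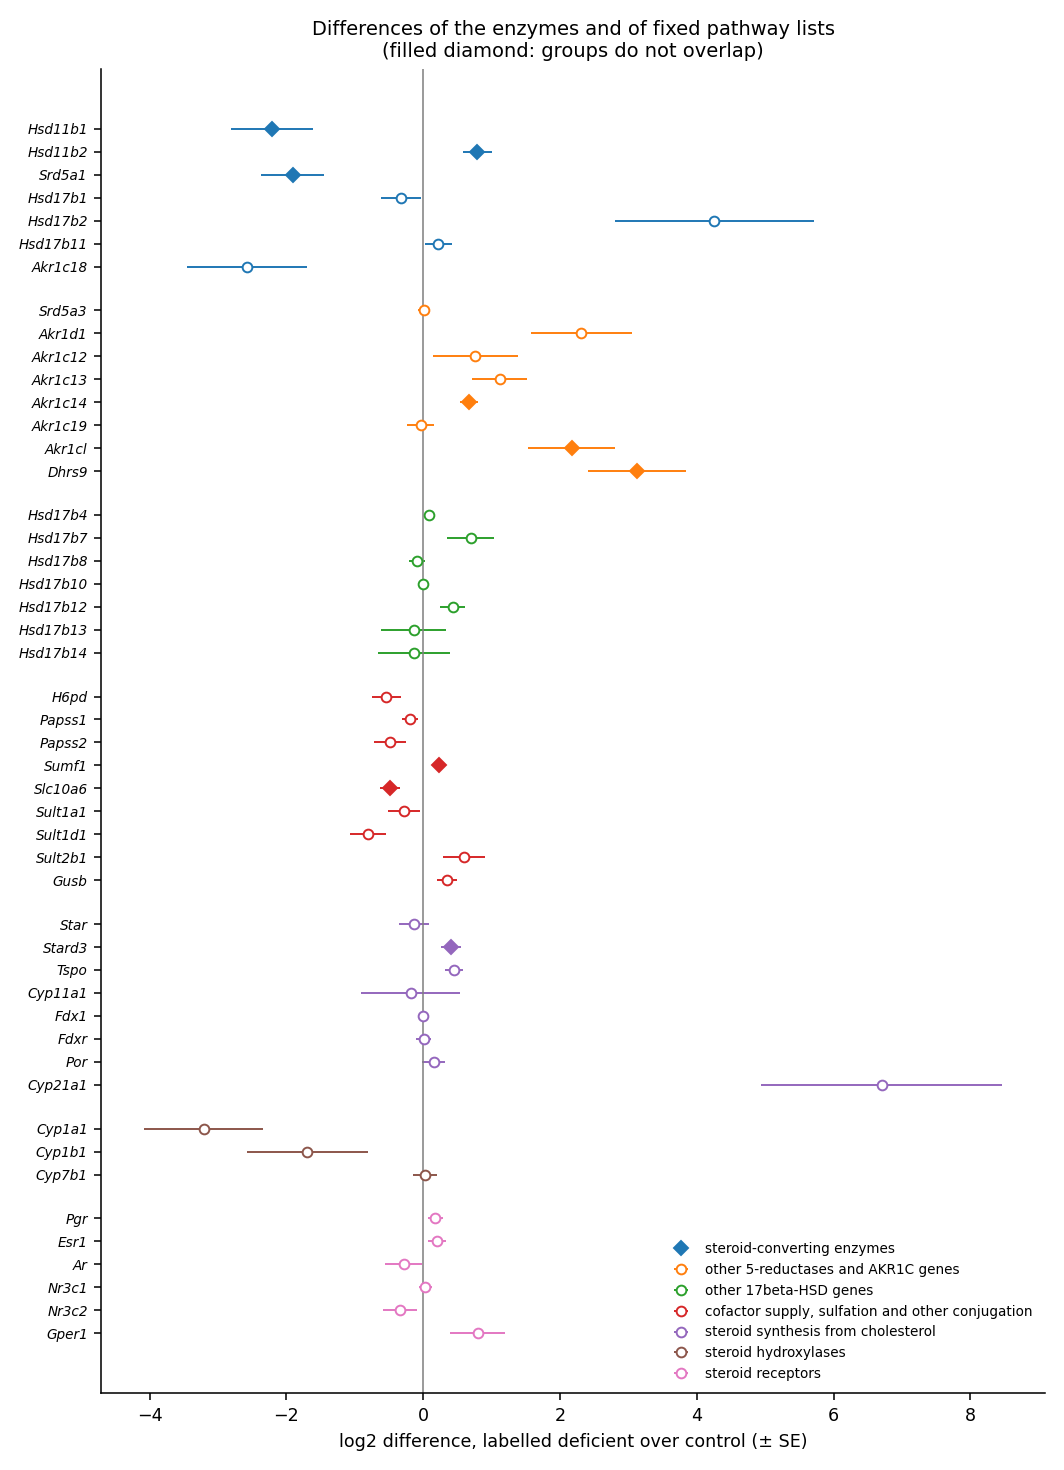
Log2 difference of the libraries labelled deficient over the controls, with its SE, for the 7 enzymes and for tested genes of 6 pathway lists (1 gene is not shown), 1 colour a list; filled diamonds mark genes whose groups did not overlap and open circles the rest. The 7 enzymes run from -2.58 (Akr1c18) to 4.26 (Hsd17b2), while receptors lie between -0.34 and 0.79.

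Of 9 genes known to respond to glucocorticoid or progestin, all 9 had negative differences, beside 8470 of the 17629 genes tested. The median log2 difference of the 9 was -0.16, and 3 showed no overlap, where 8.66% of all genes were lower without overlap. These were Klf9 (264.4 ± 35.7 against 146.5 ± 23.4 CPM), Zbtb16 (273.3 ± 30.2 against 152.6 ± 29.2 CPM) and Tsc22d3 (232.0 ± 35.7 against 139.7 ± 32.7 CPM; SD, n = 4 each, controls first). The other 6, such as Fkbp5, Per1 and Sgk1, overlapped between groups. Without libraries 2 and 3 labelled deficient, Per1, Mt1 and Mt2 had positive log2 differences (0.20, 0.21 and 0.40), and the rest stayed negative. Klf9, Zbtb16 and Tsc22d3 were then at -0.78, -0.65 and -0.66. In edgeR 0 of the 9 passed the adjusted threshold, beside 0% of all genes.

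The genes whose pattern over the 8 libraries was most like that of an enzyme were found by Pearson's r of log2 CPM among 15243 genes with a mean of at least 1 CPM. The libraries form 2 groups, which any gene that differs between them shares, so r is given only as a measure of likeness. For Hsd11b1 the nearest was Nedd1 (r = 0.964, Spearman's rho 0.833), a centrosome protein that spanned a far smaller range, from 34.5 to 43.1 CPM. Slc17a4, a phosphate transporter family member, followed at r = 0.953 (rho 0.952) and shared the high value in control library 4, at 10.8 CPM against at most 1.71 CPM elsewhere. For Hsd11b2 the nearest were B3gnt9 (r = 0.988) and Creb3l1 (r = 0.986, rho 1), a transcription factor of the secretory pathway that measured 41.3 to 74.6 CPM in the controls and 84.3 to 138.6 CPM in the libraries labelled deficient. For Srd5a1 they were the antisense transcript Emx2os (r = 0.983), whose reads cannot be told from those of its partner without strand, and E330013P04Rik (r = 0.977).

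For Hsd17b2 the nearest were Vapa (r = 0.999), a membrane contact protein with a range of only 94.5 to 152.5 CPM, and Gsta3 (r = 0.993), a glutathione transferase, with 29.7 and 14.4 CPM in libraries 2 and 3 labelled deficient against 3.04 to 6.93 CPM in the other 6. For Akr1c18 the second nearest of all was Acta2 (r = 0.952, rho 0.952), the smooth muscle actin, after Dpm2 (r = 0.963). Acta2 measured 790.4 CPM in control library 1 and 1025 to 1069 CPM in the other controls, against 817.0 to 955.0 CPM in the libraries labelled deficient.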

How the data were processed

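The submitters' processing notes name HISAT2 2.2.1, HTSeq 0.10.0 and the build mm10, without settings or strand. Raw whole-number counts per gene symbol, not normalized, were deposited by the authors for 8 libraries. Columns were matched to sample titles. All pairs of libraries differed beyond counting noise (chi-square per degree of freedom at least 48.6).

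Genes were filtered with filterByExpr, scaled with TMM and tested with edgeR 4.0.16 in R 4.3.3 (glmQLFit, glmQLFTest, group as the only term), with Benjamini-Hochberg adjustment over 17629 genes. SE is the difference over the root of F. Alternatives were other scalings and filters, DESeq2 1.42.0, limma-voom (limma 3.58.1), edgeR with legacy=FALSE, a replicate block and left-out libraries; DESeq2 with left-out libraries was added after seeing the data. On simulated counts over 17463 genes, edgeR found 20.9% of those made to differ 1.5-fold, 53.7% at 2-fold and 83.3% at 4-fold. It made 7 false calls there. With the measured counts edgeR called 0 of 17629 genes. Hsd11b1 and Akr1c18, 4.64-fold and 5.97-fold lower in the libraries labelled deficient, were among those not called. The simulated shares are therefore not taken as the power of the comparison between the measured groups.

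The 9 genes and all lists were chosen with earlier results of these data known. Named genes are the 9, pathway genes with no overlap, up to 2 more per list with the smallest p, and the 4 most alike per enzyme, of which examples are printed. One listed symbol was corrected to H6pd, and 3 were matched by older symbols (Hsd17b8, Spink1 and Adgre1). Coordinates are from RefSeq, GRCm38.p6. Transcript lengths, promoter and protein sequences were not used here, so levels are not ranked between genes and the planned motif searches were not run. Single values of 1 pathway gene are not reported here, though it stays in the counts.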

Additional observations from a re-analysis of the deposited data

How the results depend on the processing

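The number of genes called depended mostly on the tool: 0 in edgeR (4372 at an unadjusted p under 0.05), 2 in limma-voom, 3 in edgeR with legacy=FALSE and 2488 in DESeq2. Leaving out 1 library at a time gave from 0 genes (edgeR) to 3961 (DESeq2, without library 4 labelled deficient); the lowest DESeq2 count was 927, without control library 4, and the highest in edgeR was 2, without control library 2. DESeq2 called 1461 genes without libraries 2 and 3 labelled deficient. Of the 7 enzymes tested, DESeq2 called 5, beside 14.1% of all genes. With 1 library left out it called from 3 to 5 (edgeR 0), where 927 to 3961 genes were called in all. Without libraries 2 and 3 it called 1, Srd5a1. Of the 57 pathway genes tested, DESeq2 called 18, beside the same 14.1%. Without libraries 2 and 3 it called 11, beside 1461 of 18022 genes. With 1 library left out the count ran from 0 (edgeR) to 21 (DESeq2, without library 4 labelled deficient, beside 3961 of 17829 genes). As the enzymes and lists were chosen with earlier results known, nothing is read from these counts. The cause of the differences between settings was not tested.

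The DESeq2 log2 differences past the threshold were -2.21 for Hsd11b1, 0.79 for Hsd11b2, -1.91 for Srd5a1, 4.27 for Hsd17b2 and -2.58 for Akr1c18, and -2.43 for Srd5a1 without libraries 2 and 3. With 1 library left out, over both tools, they ran from -2.53 to -1.32 for Hsd11b1, from 0.67 to 1.00 for Hsd11b2, from -2.46 to -1.64 for Srd5a1, from 2.25 to 4.68 for Hsd17b2 and from -3.34 to -2.02 for Akr1c18. Without libraries 2 and 3 the difference of Hsd11b2 was 0.59 in edgeR and in DESeq2, below its range with 1 library left out. The difference changed sign without these libraries for Hsd17b2 (-0.32 in edgeR, -0.33 in DESeq2) and Hsd17b11 (-0.11 in both). The other 5 enzymes tested kept their direction under every alternative run. The log2 ratio of Hsd11b1 over Hsd11b2 ran from -2.97 to -1.95. A minimum of 1 CPM in 4 libraries gave no value for Hsd17b2.

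The replicate numbers do not show pairs: deviations from the group means correlated at 0.202, 0.236, -0.012 and -0.0779 between same-numbered libraries, and a library correlated best with its own number in 1 of 4 cases. With the replicate block edgeR called 23 genes and 0 of the enzymes. The order of levels between genes and the promoter and protein motif searches were not run. Reads were few for Sult1e1 (at most 2 in a library) and, in some or all libraries, for Hsd17b2 (lowest 5), Akr1c18 (lowest 53) and Hsd17b1 (lowest 62). Values of listed genes other than the enzymes without libraries 2 and 3 were partly added after seeing the data.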

Other observations

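A further steroid gene was high in the libraries that were high in Hsd17b2. Cyp21a1, the steroid 21-hydroxylase of the adrenal gland, stood at 57.5 and 32.2 CPM in libraries 2 and 3 labelled deficient and at 0.40 and 0.27 CPM in libraries 1 and 4, against 0.14 to 0.32 CPM in the controls. The groups overlapped, and its log2 difference was 6.70 ± 1.76 with those 2 libraries and 0.65 ± 0.42 without them (edgeR). Reads could be shared with its near-identical pseudogene. At much lower counts, Srd5a2 had 37 and 13 reads and Cyp11b1, an adrenal enzyme, 32 and 10 reads in libraries 2 and 3, against at most 4 reads in any other library for either gene. Hsd3b1 had 30 reads in library 1 labelled deficient and at most 2 elsewhere. The last 3 were below the filter and not tested.

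Other cell types gave these values beside the enzymes. Macrophage markers summed to 470.7 to 621.0 CPM in the controls and 647.9 to 921.4 CPM in the libraries labelled deficient, with 5 of 7 genes higher without overlap, beside 7.61% of all genes. Libraries 2 and 3 labelled deficient were highest, at 911.7 and 921.4 CPM. Without both, the log2 difference went from 1.03 to 0.59 for Mrc1 and from 0.56 to -0.19 for Cd68. It stayed positive for all but Cd68. Mesothelial markers summed to 291.5 to 363.3 CPM in the controls and 138.5 to 234.2 CPM in the others, most of it Wt1 (254.4 to 271.2 and 102.9 to 190.9 CPM). Wt1 and Upk1b were lower without overlap, while Upk3b and Msln overlapped. Of 6 mast cell markers, 5 were tested and 4 were lower without overlap, beside 8.66% of all genes. The remaining tested marker, Hdc, overlapped (log2 difference 0.36 ± 0.71, or 1.14 ± 0.40 without libraries 2 and 3 labelled deficient). Hdc made up most of the summed level, which was 96.8 to 191.7 CPM in the controls and 29.0 to 388.5 CPM in the others. Of 5 adipocyte markers, Adipoq, Plin1, Cidec and Lep never exceeded 10 reads in a library, and Fabp4 had 34 to 130 reads in the controls and 38 to 235 in the libraries labelled deficient. Decidual Prl8a2 and Prl3c1 likewise never exceeded 10 reads.

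Dixon's test at 95% flagged 0 of 16 combinations of a group with an enzyme or the Hsd11b1 to Hsd11b2 ratio. The nearest to its critical value was Hsd17b2 in library 2 labelled deficient, with a gap of 0.801 of the group's range, followed by Akr1c18 in library 4 labelled deficient (0.778) and Hsd11b1 in control library 4 (0.774).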
